A study of Mus musculus with 8 samples.

Results

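Melanosome transport and sorting were followed through 10 genes in B16, an established line of pigmented mouse melanoma cells. The genes were Rab27a, Mlph, Myo5a, Rab38, Rab32, Ap3b1, Atp7a, Hps1, Hps4 and Lyst, and every spot of the array that carried one of these names was used. All 10 names were found among the 34834 on the array, as 19 of 61537 non-control spots and 17 of 55698 probes, and probes of a gene are shown separately. Total RNA was labelled with Cy3 and each sample was hybridised to 1 array. There were 4 groups of 2 biological replicates: untreated control cells labelled 0 h, cells given SEMA3E for 2 h, cells given SEMA3E for 8 h, and cells given cytochalasin D for 8 h. SEMA3E is a guidance protein that cells secrete, and the study's title names its receptor PLXND1 and asks about transcriptional changes that the pair induces. Cytochalasin D is a drug that stops actin filaments from growing. All groups were grown in medium with serum and all came from this 1 line. The control is labelled for 0 h alone, so treatment and elapsed time cannot be told apart in the comparisons with control.

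Melanosomes are the organelles in which pigment cells make melanin. In textbook accounts, AP-3, the BLOC complexes and the GTPases Rab32 and Rab38 sort pigment enzymes into maturing melanosomes, and ATP7A loads copper onto tyrosinase. Finished melanosomes travel along microtubules and are then held in the actin-rich periphery by RAB27A on the melanosome, its effector melanophilin (Mlph) and the actin motor myosin Va (Myo5a). Coat-colour mutants of the mouse exist for nearly all of these genes, among them ashen (Rab27a), leaden (Mlph) and dilute (Myo5a).

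The cells carried the pigment cell program on every array, since all 10 melanocyte markers examined, from Mitf and Sox10 to Tyr and Dct, were well above background on all 8 arrays. Of the markers of other cells, Lyz2, Lum, Pdgfra, Cdh5, Tek and Krt10 were well above background on no array, Ptprc on 1, Dcn on 2, Adgre1 and Krt5 on 3 and Krt14 on 6. Cd68, Csf1r, Col1a1, Col1a2, Pecam1 and Kdr were well above background on all 8, at scaled levels (explained next) from -6.09 to -3.25. The 75th percentile of the unscaled signal was 59.3 and 61.1 on the SEMA3E 2 h arrays, 66.8 on cytochalasin D replicate 2 and 111 to 154 on the other arrays. Scaled levels are therefore given in log2 units from the 75th percentile of each array, taken over the probes that no array failed to measure above background, so that a difference of 1 is 2-fold. For 5 of the 8 arrays the most similar array across probes was not the replicate. With 2 arrays a group, the standard error of a difference between groups had a median of 0.364 log2 units. On each array 37.8% to 48.2% of spots were well above background, so the median spot was dim. Unscaled, the median spot read 20.7 on SEMA3E 8 h replicate 2 and 3.65 to 7.99 on the other arrays. The lowest signal well above background was 19.0 on that array and 6.62 to 9.22 on the others.

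Rab27a, the GTPase that marks melanosomes for capture by the actin motor, had the lowest readings of its 4 groups after 2 h of SEMA3E and read near control in both 8 h groups. The files hold 2 probes for it, both designed to the same transcript, and they share no stretch of 12 bases. They are shown because the result rests on them, each by the first 30 of its 60 bases, 5′ to 3′.
Rab27a probe 1: agggactctttgaaacaccaaactcatcat
Rab27a probe 2: actgtagactatcactctcaaacacgtgaa
The unscaled signal of probe 1 was 1136 and 928 in control, 52.2 and 34.7 after 2 h of SEMA3E, 967 and 1459 after 8 h of SEMA3E, and 1473 and 546 with cytochalasin D. Both 2 h arrays were thus far below the other 6. The 2 h arrays also had the lowest 75th percentiles, and the part of this in the result was not tested. On cytochalasin D replicate 2, whose 75th percentile was nearly as low, probe 1 read 546. Probe 1 is spotted 2 times on each array, and its spots differed by at most 0.23 log2 units.

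On the scaled log2 scale probe 1 read -1.29 and -1.31 in control, -4.52 and -5.07 at 2 h of SEMA3E, -1.49 and -0.63 at 8 h of SEMA3E, and -0.48 and -1.37 with cytochalasin D. The difference at 2 h was -3.50 ± 0.43 (SE, n = 2 arrays a group), an 11.3-fold lower signal with a 95% interval from -4.51 to -2.48. It did not pass limma's test after Benjamini-Hochberg adjustment over all 24667 probes tested (adjusted p = 0.397), and it was number 3 of these probes in order of p. No probe on the array passed in this comparison, 0% of those tested. From 2 h to 8 h of SEMA3E the difference was 3.73 ± 0.43 (limma adjusted p = 0.32), and at 8 h against control it was 0.24 ± 0.43 for SEMA3E and 0.38 ± 0.43 for cytochalasin D. SEMA3E 2 h was thus the lowest group, and the other 3 groups overlapped. The gap between the higher 2 h array and the lowest of the other 6 arrays was 3.02 log2 units, the widest such gap of all 24667 probes, a measure chosen after the values were seen.

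**Figure D1:**
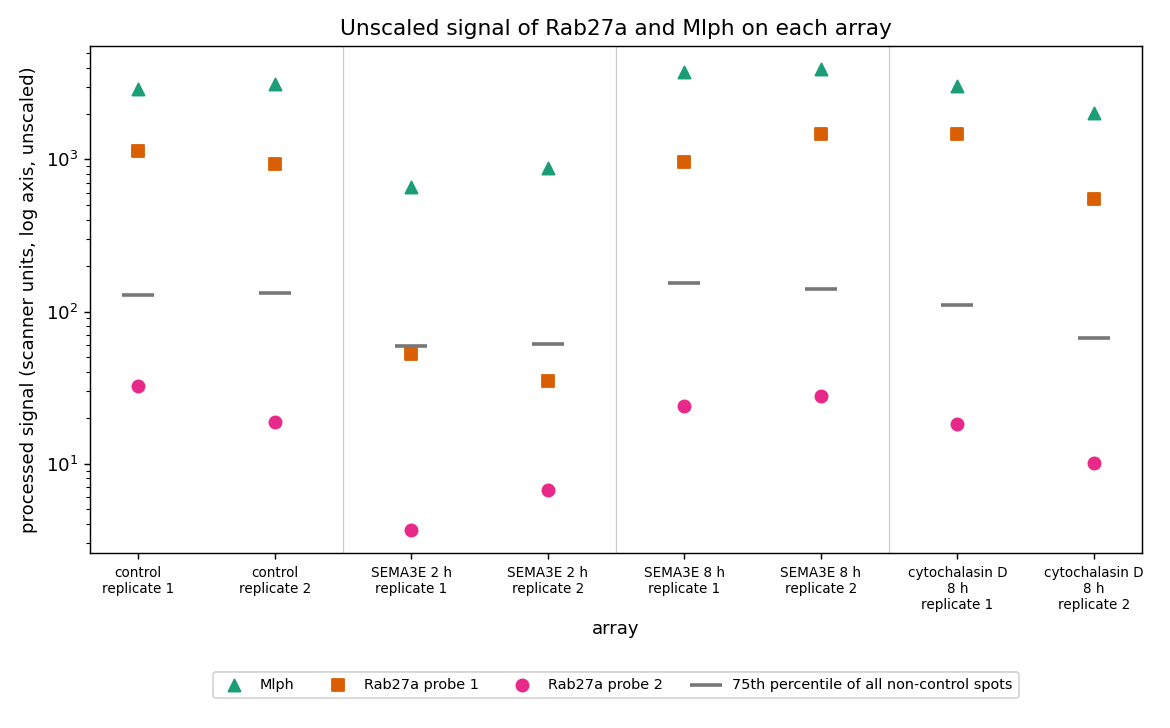
Unscaled processed signal (log axis) of both Rab27a probes and of Mlph on each of the 8 arrays, with a grey bar at the 75th percentile of all non-control spots of the array. On the 2 arrays of SEMA3E 2 h, Rab27a probe 1 lies at 52.2 and 34.7, below the grey bars, whereas on the other 6 arrays it lies at 546 to 1473, above them.

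Rab27a probe 2 was dim on every array. Its signal was 32.2 and 18.7 in control, 3.64 and 6.71 at 2 h of SEMA3E, 23.8 and 27.9 at 8 h of SEMA3E, and 18.3 and 10.1 with cytochalasin D. The 27.9 is from SEMA3E 8 h replicate 2, whose lowest signal well above background was 19.0. It was not well above background on either 2 h array, where it too read below the other 6 arrays. At 2 h its scaled signal differed from control by -1.22 ± 0.40 (95% interval -2.15 to -0.28, limma adjusted p = 0.518), with measured means of -7.90 and -6.69. Since the 2 h readings were not well above background, the size of this difference is uncertain. After normexp background correction this probe read 0.63 higher at 2 h than in control, while probe 1 differed by -2.21. The direction of probe 2 thus depended on the background correction. Normexp was run with an offset of 50, above every signal of probe 2 given here. With it the median difference of all tested probes at 2 h was 0.44. The part of the offset in the turned sign was not tested. In the authors' deposited table, which gives 1 value for Rab27a, the signal was 346 and 253 in control and 52.2 and 34.8 at 2 h of SEMA3E. Over the array, 99.988% of the table's values for names with several spots lay within 1% of the mean log2 signal of the spots well above background. By that rule the Rab27a value holds both probes in the other groups and probe 1 alone on the 2 h arrays.

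Rab27a probe 1 met the threshold in 4 of 25 other ways of processing that give this probe a value of its own. Its limma adjusted p was 0.044 after normexp, where 6048 probes passed, and 4.386e-04 with arrays centred on the median of all probes, where 63 passed and limma gave every probe the same standard error, 0.751. Without SEMA3E 2 h replicate 1 it was 0.0436 with the same probes tested, where 355 passed, and 0.0363 with the filter on dim probes applied again, where 519 passed. Over all 25 the adjusted p ran from 4.386e-04 to 0.953 and the difference from -4.09 to -2.21. With the same probes tested, the difference stayed between -3.77 and -3.22 with any 1 array left out.

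Mlph, the linker between RAB27A and the motor, was the other member read below all 6 remaining arrays at 2 h of SEMA3E. Its 1 probe read 0.07 and 0.45 in control, -0.86 and -0.40 at 2 h of SEMA3E, 0.46 and 0.80 at 8 h of SEMA3E, and 0.57 and 0.52 with cytochalasin D. The unscaled signal ran from 657 to 883 on the 2 h arrays and from 2028 to 3932 on the others. The difference from control at 2 h was -0.90 ± 0.30, a 1.86-fold lower signal that did not pass (limma adjusted p = 0.527). Against 2 h, SEMA3E at 8 h was 1.26 ± 0.30 higher (limma adjusted p = 0.386). Both 8 h groups lay above both control arrays, by 0.37 ± 0.30 with SEMA3E and 0.28 ± 0.30 with cytochalasin D, and they overlapped each other. With arrays centred on the median of all probes, a dim level, the SEMA3E 8 h difference was -0.79, so its direction depended on the scaling. Under that centring the median difference of all tested probes was -1.01. The median spot was highest on SEMA3E 8 h replicate 2, and its part in this was not tested.

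Myo5a, the motor of the same complex, read near control at 2 h of SEMA3E. Its brightest probe, also spotted 2 times with spots within 0.045 log2 units, read 1.35 and 1.23 in control and 1.49 and 1.41 at 2 h of SEMA3E. It read 0.71 and 1.07 at 8 h of SEMA3E and 0.96 and 1.73 with cytochalasin D. The 3 Myo5a probes differed from control at 2 h by 0.16 ± 0.33, -0.22 ± 0.25 and 0.00 ± 0.33. The 3 thus did not share a sign, and none passed. At 8 h of SEMA3E all 3 were below 0, at -0.40 ± 0.33, -0.11 ± 0.25 and -0.22 ± 0.33, with the first and second outside the range of the control arrays. The brightest probe's 95% interval at 2 h ran from -0.62 to 0.93. No test compared Myo5a with Rab27a or Mlph.

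**Figure D2:**
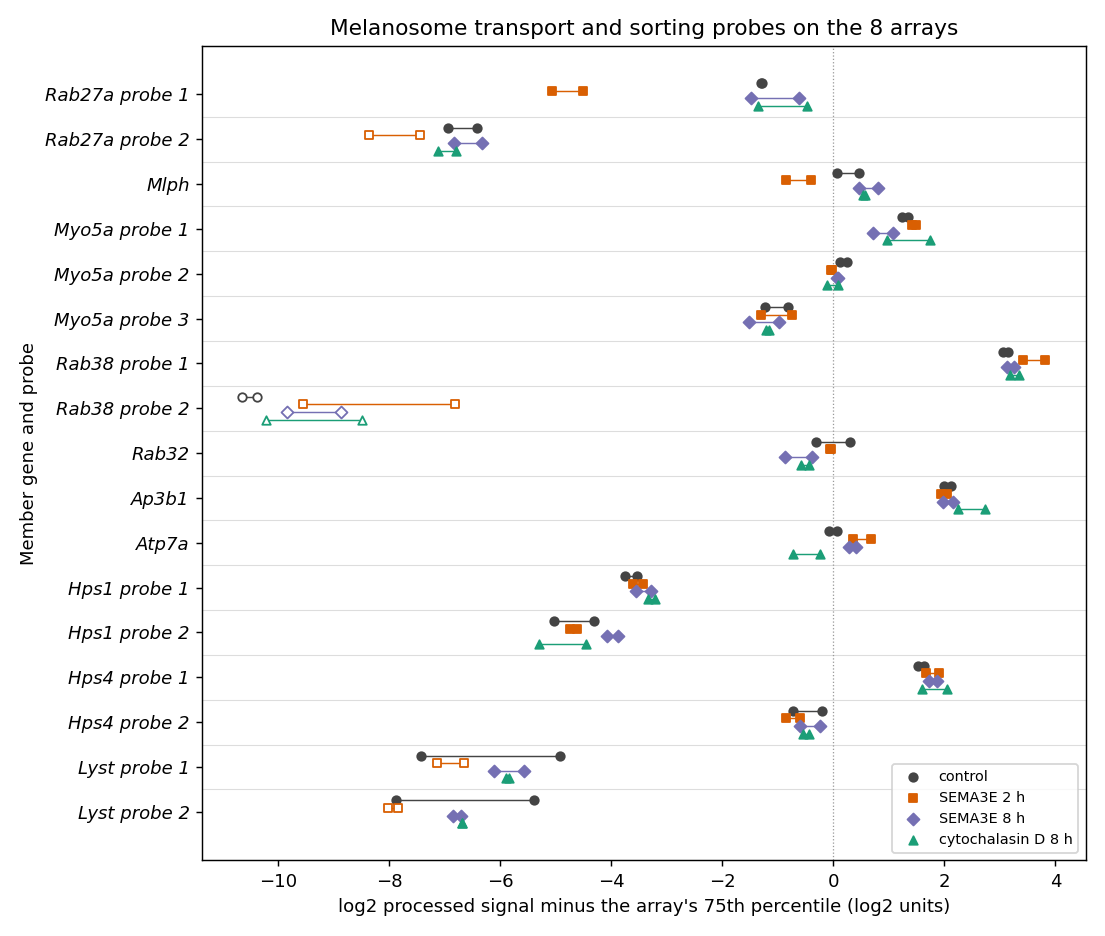
Scaled log2 signal (x axis) of all 17 probes of the 10 genes (y axis), with the 2 arrays of a group joined by a line and open symbols where fewer than 2 arrays of the group were well above background. Rab27a probe 1 at SEMA3E 2 h (-4.52 and -5.07) stands apart from its other 6 arrays (-1.49 to -0.48), a wider step between groups than for any other probe shown that was tested.

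Rab38 and Rab32 are related GTPases that direct pigment enzymes to melanosomes, and BLOC-3 activates them. Rab38 probe 1 was bright everywhere, with unscaled signals from 12735 to 25961. Its scaled level was 3.15 and 3.06 in control, 3.41 and 3.82 at 2 h of SEMA3E, 3.25 and 3.13 at 8 h of SEMA3E, and 3.18 and 3.35 with cytochalasin D. It was the 1 member probe with both 2 h arrays above all 6 others, by 0.06 log2 units. The difference from control was 0.51 ± 0.27 at 2 h (limma adjusted p = 0.554), 0.09 ± 0.27 at 8 h of SEMA3E and 0.16 ± 0.27 with cytochalasin D. With arrays centred on the median of all probes, a dim level, the 2 h difference was -0.079, so its direction depended on the scaling. Under that centring the median difference of all tested probes was -0.56.

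Rab38 probe 2 was well above background on none of the 8 arrays and was not tested. The probes overlap by 23 bases, and probe 2 lies 37 bases further along the transcript. It holds the hexamer AATAAA, the letters of the common polyadenylation signal, from its base 32, and probe 1 does not hold these letters. G and C make up 35% of the bases of probe 1 and 21.67% of those of probe 2. The reason for their difference in signal was not tested. The last 30 bases of probe 1 and the first 30 of probe 2 are shown because these neighbours differ so much in signal, with the shared bases in capitals.
Rab38 probe 1: tgtggaaGATATATTATATATATTTTTCAC
Rab38 probe 2: GATATATTATATATATTTTTCACaagtgaa
Probe 2 read 1.73 and 1.72 in control, 1.58 and 10.4 at 2 h of SEMA3E, 2.96 and 4.81 at 8 h of SEMA3E, and 1.71 and 3.89 with cytochalasin D. All of these are background readings and carry no order.

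Rab32 had lower readings in both 8 h groups than in control. It read 0.30 and -0.32 in control, -0.06 and -0.05 at 2 h of SEMA3E, -0.88 and -0.40 at 8 h of SEMA3E, and -0.45 and -0.58 with cytochalasin D. Both 8 h groups lay below both control arrays and overlapped each other, and the 2 h arrays lay between the controls. The difference was -0.63 ± 0.32 with SEMA3E at 8 h (limma adjusted p = 0.807) and -0.51 ± 0.32 with cytochalasin D (adjusted p = 0.9999), and neither passed. Leaving out 1 of the control arrays moved the SEMA3E 8 h value to -0.94 or -0.32, and the cytochalasin D value to -0.81 or -0.20.

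The sorting machinery was read through Ap3b1, Hps1 and Hps4, of which no probe passed. Ap3b1 encodes the large beta subunit of AP-3, the adaptor that packs tyrosinase for the melanosome. It read 1.99 and 2.12 in control, 2.05 and 1.94 at 2 h of SEMA3E, 2.16 and 1.98 at 8 h of SEMA3E, and 2.24 and 2.72 with cytochalasin D. The cytochalasin D arrays thus lay above the other 6, the nearest of which read 2.16, while those 6 overlapped. The share of all probes placed so was not computed. Without overlap, 14.2% of all probes lay above control with cytochalasin D, and 17.5% above SEMA3E at 8 h. The difference with cytochalasin D was 0.43 ± 0.28 against control and 0.41 ± 0.28 against SEMA3E at the same 8 h (limma adjusted p = 0.9999 and 0.576). With SEMA3E the differences from control were -0.06 ± 0.28 at 2 h, with a 95% interval from -0.72 to 0.60, and 0.02 ± 0.28 at 8 h.

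Hps1 and Hps4 form BLOC-3, the exchange factor of Rab32 and Rab38, and are the genes of the pale ear and light ear mice. Hps4 probe 1 read 1.52 and 1.63 in control, 1.66 and 1.90 at 2 h of SEMA3E, 1.72 and 1.87 at 8 h of SEMA3E, and 1.60 and 2.04 with cytochalasin D. Both SEMA3E groups lay just above control, by 0.20 ± 0.28 and 0.22 ± 0.28, and cytochalasin D overlapped it. Hps4 probe 2 differed from control by -0.26 ± 0.30, 0.05 ± 0.30 and -0.02 ± 0.30 in the same order, overlapping it each time. The Hps4 probes therefore had opposite signs at 2 h and with cytochalasin D, within their errors.

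Hps1 probe 1, designed to a cDNA clone instead of the reference transcript, read -3.75 and -3.53 in control, -3.61 and -3.43 at 2 h of SEMA3E, -3.56 and -3.29 at 8 h of SEMA3E, and -3.35 and -3.21 with cytochalasin D. Hps1 probe 2, on the reference transcript, read -5.03 and -4.32 in control, -4.61 and -4.74 at 2 h, -4.08 and -3.89 at 8 h of SEMA3E, and -4.45 and -5.31 with cytochalasin D. At 8 h of SEMA3E probe 2 lay above all other arrays, 0.69 ± 0.38 over control (limma adjusted p = 0.831), where probe 1 differed by 0.22 ± 0.26. The share of all probes above all other arrays was not computed, and 25.9% lay above control without overlap. Between the treatments at 8 h, cytochalasin D minus SEMA3E was -0.90 ± 0.38 for probe 2, without overlap (limma adjusted p = 0.445), and 0.15 ± 0.26 for probe 1. With arrays centred on the median of all probes, both values of probe 2 turned, to -0.47 and 0.086, so their directions depended on the scaling. Under that centring the median differences of all tested probes were -1.01 and 0.80. With cytochalasin D the probes had opposite signs, at 0.36 ± 0.26 and -0.21 ± 0.38. Hps1 thus gave no direction that both probes shared in the cytochalasin D group.

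Atp7a, the copper pump of the mottled mice, was read on opposite sides of control under the treatments at 8 h. It read 0.06 and -0.09 in control, 0.67 and 0.35 at 2 h of SEMA3E, 0.41 and 0.27 at 8 h of SEMA3E, and -0.24 and -0.73 with cytochalasin D. Both SEMA3E groups lay above both controls, both cytochalasin D arrays lay below them, and the SEMA3E groups overlapped each other. Against control the differences were 0.52 ± 0.29, 0.36 ± 0.29 and -0.47 ± 0.29. Between the treatments matched at 8 h, cytochalasin D was 0.83 ± 0.29 lower than SEMA3E, a difference of -0.83 (95% interval -1.51 to -0.14) that did not pass (limma adjusted p = 0.421). With each array centred on the median of all probes, the differences of SEMA3E from control were -0.068 at 2 h and -0.80 at 8 h. The difference between the treatments at 8 h was 0.16, so these directions depended on the scaling. Under that centring the median differences of all tested probes were -0.56, -1.01 and 0.80 in the same order. After normexp the 2 h difference was 0.79 and passed (limma adjusted p = 0.0445), in a fit where 6048 probes did.

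Lyst, the lysosomal trafficking gene mutated in beige mice, was dim, and its 2 control arrays disagreed most of all members. The unscaled signal of Lyst probe 1 was 15.95 and 76.0 in control, 8.46 and 11.54 at 2 h of SEMA3E, 39.2 and 47.0 at 8 h of SEMA3E, and 35.7 and 23.6 with cytochalasin D. Lyst probe 2 had the same contrast in control, at 11.8 and 54.6. Neither probe was well above background on either 2 h array. At 2 h the fitted differences from control were -0.72 ± 0.73 for probe 1 and -1.30 ± 0.70 for probe 2, with overlapping groups and neither passing. Their 95% intervals, -2.43 to 0.99 and -2.93 to 0.33, both included no difference. After normexp, run with an offset of 50, the difference of probe 2 was 0.39, so its direction depended on the background correction. The median difference of all tested probes was 0.44 there, and the part of the offset was not tested. The difference of probe 1 was -1.98 without control replicate 1 and at 0.54 without control replicate 2, so 1 control array decided the sign. At 8 h probe 1 differed from control by 0.33 ± 0.73 with SEMA3E and 0.31 ± 0.73 with cytochalasin D, and these values too turned below 0, to -0.93 and -0.95, without control replicate 1.

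Taken over the whole set, 16 of the 17 probes entered the test, since Rab38 probe 2 did not pass the filter on dim signals. At 2 h of SEMA3E 6 lay above 0 and 10 below, where 47.2% of all probes lay below. The median was -0.05 against 0.04 for all 24667 probes, and limma called 0 of 16. At an unadjusted p under 0.05, 3 were lower and 0 higher. The 3 were both Rab27a probes, which share their transcript, and Mlph, and 4.16% of all probes were lower and 5.03% higher at that threshold. The same 3 were the member probes whose 2 h arrays lay below all 6 others, again a measure chosen after the values were seen, as did 7.6% of all probes, and 1 lay above, as did 9.46%. Against control alone 4 probes lay below without overlap, as did 16.3% of all probes, and 4 above, as did 23.5%. Relative to the median of the other 9 genes' brightest probes, which does not depend on how arrays are centred, Rab27a differed by -3.62 and Mlph by -1.02 at 2 h.

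**Figure D3:**
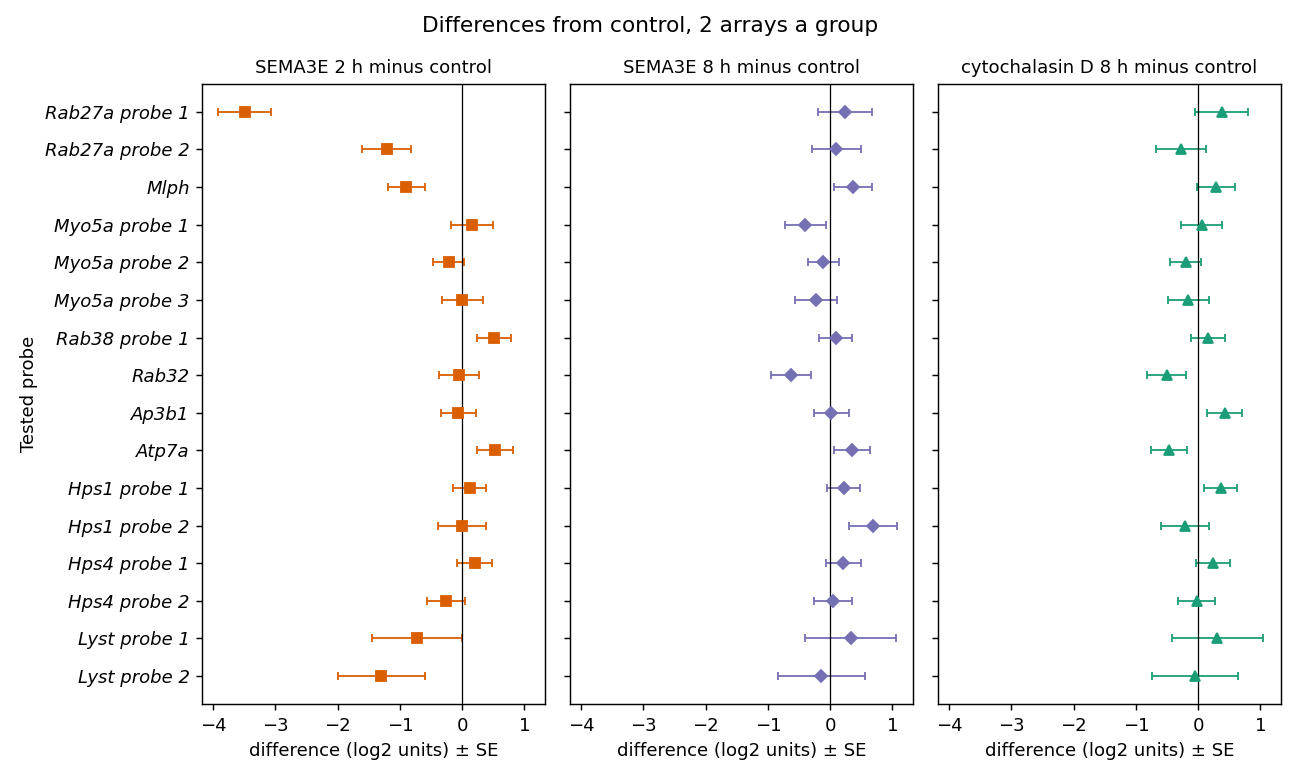
Difference from control in log2 units (x axis, with limma's standard error as bars) for the 16 tested probes (y axis) in the 3 treated groups, which share the same 2 control arrays. At 2 h of SEMA3E, Rab27a probe 1 lies at -3.50, Rab27a probe 2 at -1.22 and Mlph at -0.90, and in the 8 h panels every probe lies between -0.63 and 0.69.

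At 8 h of SEMA3E 11 of the 16 member probes lay above 0 and 5 below, where 35% of all probes lay below. The median was 0.09 against 0.15 for all probes. Limma called 0 of 16, and 0 had an unadjusted p under 0.05, as against 5.68% of all probes higher and 0.778% lower. Over the array 1 probe was called, 0.00405% of those tested, and it belonged to Catsperg2, a gene of a sperm ion channel. Without overlap with control, 4 member probes lay above, as did 25.9% of all probes, and 3 below, as did 11.3%. The members below were Myo5a probes 1 and 2 and Rab32.

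With cytochalasin D 8 of 16 lay above 0 and 8 below, where 48.5% of all probes lay below. The median was 0.02 against 0.01 for all probes. Limma called 0 of 16 and 0% of all probes, and 0 members had an unadjusted p under 0.05, as against 0.62% of all probes higher and 1.93% lower. Without overlap, 4 lay above control, as did 14.2% of all probes, and 3 below, as did 13.9%, the latter being Rab32, Atp7a and Myo5a probe 2. Against SEMA3E at the matched 8 h, limma called 0 of 16 and 0% of all probes, 2 member probes lay above and 2 below without overlap, as did 17.5% and 34.9% of all probes. Of these, Atp7a alone had an unadjusted p under 0.05, where 1.79% of all probes were higher and 9.45% lower. From 2 h to 8 h of SEMA3E limma again called 0 of 16 and 0% of all probes. There 3 member probes were higher at an unadjusted p under 0.05, as were 9.26% of all probes, namely Mlph and both probes of Rab27a, and 0 were lower, as were 2.81%. Without overlap 8 were higher and 3 lower, as were 30.5% and 20.9% of all probes.

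The wider transport machinery was read in 31 genes on the array, taken as relatives of the RAB27A complex, its prenylating enzymes and the microtubule motors, of which 23 were tested by their brightest probe. At 2 h of SEMA3E 9 lay above 0 and 14 below (median -0.10), where 47.2% of all probes lay below, and limma called 0. At an unadjusted p under 0.05, 1 of the 23 was lower and none was higher, where 4.16% and 5.03% of all probes were. That 1 was Myo6, a motor that walks toward the minus ends of actin filaments. It was well above background on both control arrays and neither 2 h array, with a difference of -2.59 ± 0.59 (measured means -8.47 and -5.88, limma adjusted p = 0.471). Next in that direction came Rab7, the late endosome GTPase, at -0.74 ± 0.41, and in the other Dynll2, a dynein light chain gene, at 0.65 ± 0.40 and Rab9 at 0.28 ± 0.27. Of the RAB27A relatives, Rab27b, Myrip, Exph5, Sytl3, Sytl4, Sytl5, Myo5b and Myo5c were not tested because they did not pass the filter on dim signals.

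At 8 h of SEMA3E 18 of these 23 lay above 0 and 5 below, where 35% of all probes lay below. The median was 0.18 against 0.15 for all probes, and limma called 0. Those with an unadjusted p under 0.05 were 2 of 23, both higher, where 5.68% of all probes were higher and 0.778% lower. They were Unc13d, a RAB27A-binding exocytosis factor, at 0.77 ± 0.29 and Sytl1, a synaptotagmin-like RAB27A effector, at 1.14 ± 0.49, both dim. The median spot was highest on SEMA3E 8 h replicate 2, at 20.7, and its part in these values was not tested. Mreg, the melanoregulin gene, lay at -0.34 ± 0.43 and Chm, which escorts Rab proteins to their prenylating enzyme, at -0.19 ± 0.38. With cytochalasin D 14 lay above 0 and 9 below (median 0.06), where 48.5% of all probes lay below. Limma called 0, and 0 had an unadjusted p under 0.05. Mreg lay at 0.73 ± 0.43 and the prenylating enzyme subunits Rabggta and Rabggtb at 0.33 ± 0.26 and -0.45 ± 0.34, with Dynll2 at -0.56 ± 0.40.

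The sorting complexes were read in 40 genes, of which 39 were tested: the other subunits of AP-3, BLOC-1, BLOC-2 and HOPS, with their partners and the relatives of Lyst. At 2 h of SEMA3E 12 lay above 0 and 27 below, where 47.2% of all probes lay below. The median was -0.15 against 0.04 for all probes. Limma called 0. At an unadjusted p under 0.05, 1 of the 39 was lower and none was higher, against the same 4.16% and 5.03% of all probes. That gene was Nbea, a relative of Lyst, at -1.48 ± 0.46 (measured means -8.13 and -6.65, limma adjusted p = 0.518). It was not well above background on either 2 h array. Stx12, an endosomal fusion protein gene, lay at -0.95 ± 0.49, and Ap3m2 and Nbeal1 lay at 0.74 ± 0.33 and 0.63 ± 0.29. At 8 h of SEMA3E 26 lay above 0 and 13 below, where 35% of all probes lay below (median 0.11 against 0.15 for all probes). Nbeal1 lay at 0.60 ± 0.29 and Ap3d1 at 0.53 ± 0.37. Ankrd27, an effector of Rab32 and Rab38, lay at -0.41 ± 0.27 and Hps5 at -0.40 ± 0.35. With cytochalasin D 21 lay above 0 and 18 below (median 0.02), where 48.5% of all probes lay below. Sgsm2 lay at 0.76 ± 0.35, Ap3s2 at 0.61 ± 0.30, Snapin at -0.45 ± 0.39 and Ap3m2 at -0.73 ± 0.33. In both of these groups limma called 0 of the 39, and 0 had an unadjusted p under 0.05.

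The pattern of Rab27a probe 1 over the 8 arrays was set against every tested probe of another gene by the root mean square distance between values centred on their own mean. The 5 nearest were probes of Tmed9 (0.49 log2 units), Prmt1 (0.55), Tmem62 (0.55), Patj (0.64) and Zfp324 (0.65), whereas the median probe lay at 1.65. The probes of Tmed9 and Prmt1 were well above background on all 8 arrays, but those of Tmem62, Patj and Zfp324 on only 5, 7 and 6. All 5 were low at 2 h of SEMA3E, from -3.08 for Tmem62 to -2.37 for Zfp324 against control. This follows from choosing them by likeness to a probe that was low there, and is no separate result. For 4 of the 5 genes another probe was tested, and those read closer to control. Tmed9 had 1 other probe at 0.29, Prmt1 1 at -0.85, Tmem62 1 at -0.29, and Patj 3 at -0.47 to -0.24.

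The promoters of the members were searched, with the values already known, for 6 forms of the E-box that MITF, a master regulator of pigment cells, and other factors bind. RefSeq windows of build GRCm38.p6, from 250 bases before to 50 after a start site, were matched for 9 of the 10 genes as 11 windows, and Rab38 had none. The core CACGTG, which reads the same on both strands, was found in 4 of the 11 windows, those of Rab27a, Mlph, Atp7a and Hps1, against 7.15% of all 32851 windows. The core CATGTG, on either strand, was found in 1, of Hps1, against 14.2%. Of the longer forms, which contain these cores and so overlap them, TCACGTG was found in 3 (Atp7a, Hps1 and Mlph, against 3.77% of all windows) and TCATGTG in 1 (Hps1, against 3.77%). TCATGTGA and AGTCATGTG were found in 0 of 11, against 0.986% and 0.274%. The form shown is thus the one found most often of 6. Stretches of 30 bases are shown for Rab27a and Mlph, the genes whose probes had an unadjusted p under 0.05 at 2 h of SEMA3E, with the E-box in capitals, at chr9:73063898-73063927 (plus strand) for Rab27a and chr1:90915040-90915069 (plus strand) for Mlph.
Rab27a: cttgCACGTGctcctccgtctgtctgaacc
Mlph: tcaggagtagccCACGTGatctgagccgca
Atp7a and Hps1, which carry the same letters, did not read lower at 2 h, at 0.52 ± 0.29 and 0.13 ± 0.26 for their brightest probes. A match describes letters only.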

How the data were processed

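Per the labels, total RNA of 8 B16 cultures, 4 groups of 2 biological replicates, was labelled with Cy3, 1 colour, 1 array each. The deposited intensity values are the processed signal of Agilent Feature Extraction 11.5.1.1, background-subtracted by the scanner software per the file headers. The authors' deposited table gives 1 linear intensity a gene name. How it was made is not given in the sources used here. Its rule for combining spots was inferred from its values.

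Outlier and control spots were left out, spots of a probe were averaged as log2, and the 75th percentile of an array was subtracted, computed on the 18687 probes that every array measured well above background. A probe was tested if well above background on both arrays of a group, which 24667 were. Limma 3.58.1 (R 4.3.3) fitted all 8 arrays, with 4 residual degrees of freedom, two-sided, Benjamini-Hochberg over all probes, threshold 0.05. The fit was tested on simulated data. The number of arrays limits precision, and p-values measure only the spread between these cultures.

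The 10 genes, the wider lists and the markers were chosen with earlier results of these data known. All member probes are named. From each wider list the 2 genes of smallest p in each direction and comparison with control are named, and so are the 5 patterns nearest to the member probe of widest range. Alternatives covered background, normalization, centring, filters, outliers, probes, the table, the replicate number and each array left out. The file headers name another build than the reference tables, so no probe positions are given.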

Additional observations from a re-analysis of the deposited data

How the results depend on the processing

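The main setting called 0 probes at 2 h of SEMA3E, 1 at 8 h of SEMA3E, and 0 in the other 3 comparisons, and the count moved with the processing. Normexp, with an offset of 50, gave 6048 calls at 2 h (5951 higher), 0 at 8 h of SEMA3E, 2 between the 8 h treatments (0 higher) and 1 from 2 h to 8 h. Centring on the median of all probes, added after the data were seen, gave 63 (6 higher), 3 (1 higher), 4 with cytochalasin D (1 higher), 9 (6 higher) and 61 (15 higher) in the order of the text. The deposited table gave 20 (20 higher), 13 (9 higher), 9 (9 higher), 13 (9 higher) and 20 (3 higher). The brightest probe per gene gave 1 between the 8 h treatments. At 8 h of SEMA3E quantile normalization, no filter and the stricter filter gave 0. Against control at 2 h, the median of all probes moved to 0.44 with normexp and to -0.56 with median centring, and at 8 h of SEMA3E to -1.01 with median centring.

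With the replicate number as a block, 0 probes were called at 8 h of SEMA3E and in every other comparison. Nothing in the labels says whether the numbers pair cultures. Deviations of same-numbered arrays correlated from -0.179 to 0.144, over 0.1 in 2 of 6 pairs, which cannot settle whether they do.

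Leaving out an array was run in 2 versions. The first applied the filter on dim probes again to the 7 arrays left, and the second, which keeps the probes and scaling of all 8 arrays, was adopted after the counts of the first were seen. With the same probes the counts ran from 0 to 355 at 2 h, 0 to 1 at 8 h of SEMA3E and 0 to 398 from 2 h to 8 h, the highest of the first and last without SEMA3E 2 h replicate 1. With the filter applied again they ran from 0 to 519 at 2 h, 0 to 4003 at 8 h of SEMA3E, 0 to 3546 between the 8 h treatments and 0 to 1654 from 2 h to 8 h. The 519 came without SEMA3E 2 h replicate 1, as did 481 from 2 h to 8 h, and the 4003, 3546 and 1654 without SEMA3E 8 h replicate 1. There 28887 probes were tested, against 25097 to 26132 in the other runs of this version. In every such run a group left with 1 array passes the filter on that array. Here that array was SEMA3E 8 h replicate 2, which had 48.2% of spots well above background, the highest share. A lone array is assumed to vary like the other groups.

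All 16 tested member probes were followed in all 5 comparisons, 6 of the probes and 2 of the comparisons added after the data were seen. The deposited table counts only for genes with 1 probe, since it mixes probes. Of 1975 alternative differences 171 had the other sign than the main value, touching 57 of 80 pairs of probe and comparison. A difference is named as turned only where its main size was above its standard error or the alternative passed the test, which left 13. Under median centring these were, against control, Atp7a at 2 h (-0.068) and 8 h of SEMA3E (-0.80), Rab38 probe 1 at 2 h (-0.079), and Mlph (-0.79) and Hps1 probe 2 (-0.47) at 8 h of SEMA3E. Between the 8 h treatments they were Atp7a (0.16) and Hps1 probe 2 (0.086), and from 2 h to 8 h Hps4 probe 2 (-0.26). Under normexp they were Rab27a probe 2 (0.63) and Lyst probe 2 (0.39) at 2 h, and from 2 h to 8 h Rab27a probe 2 (-0.47), Lyst probe 1 (-0.34) and Lyst probe 2 (-0.42). Rab27a probe 1 kept its sign under all 25 alternatives that give it a value, both at 2 h and from 2 h to 8 h, and passed in 4 of them each time. Atp7a at 2 h passed in 1, normexp. The deposited table's Rab27a value differed by -1.77 at 2 h, but holds both probes in control and probe 1 alone at 2 h.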
